A study of Mus musculus with 4 samples.

Results

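Transcripts of 10 genes of the integrated stress response were followed in single cells from mouse tumours and tumour-draining lymph nodes (TDLN). The genes were taken by symbol: Atf4, Ddit3, Trib3, Chac1, Sesn2, Eif4ebp1, Asns, Psat1, Phgdh and Slc7a11. All 10 were found among the 31253 genes measured, in 11 rows, because Ddit3 has a pair of identifiers, one of which held 0 UMIs in every library. There were 4 libraries, 1 per group: tumour with NanoCa, tumour with mock, TDLN with NanoCa and TDLN with mock. NanoCa is, by the title of the series, a lipid nanoparticle that holds a calcium crystal, and the tumours were CT 26, a mouse colon carcinoma line. All animals were female and 4 to 8 weeks old. The sources used here give neither the strain nor the number of mice behind a library. The mock libraries carry the tag "no treatment", while the treatment field names NanoCa for all 4 libraries, so every ratio of NanoCa to mock rests on the sample names and tags being right.

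In the integrated stress response, kinases that sense amino acid shortage, unfolded protein, viral RNA or lack of heme phosphorylate the translation factor eIF2alpha. General translation is then reduced, while the mRNA of Atf4 is translated more. ATF4 is a transcription factor that, paired with C/EBP proteins, activates genes for amino acid synthesis and uptake, and also the genes of its own feedback. Because ATF4 is controlled largely at translation, the level of Atf4 mRNA does not measure the protein, and none of the values here are protein levels.

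ATF4 and C/EBP factors are known to bind composite elements of the form TGATGNAA. That motif was searched on both strands in RefSeq promoters (GRCm38.p6), from 250 bases before to 50 after each start. Of the 10 genes, 9 had an entry (Eif4ebp1 had none), and 4 of these 9 held a match: Chac1, Asns, Slc7a11 and Trib3. A match occurred in 3.97% of all 32851 promoters. The windows before the start are shown for Chac1, Asns and Slc7a11, because they show how differently the matches are placed. Each is written 5′ to 3′ on the strand of the gene, with the matches in capitals.
Chac1: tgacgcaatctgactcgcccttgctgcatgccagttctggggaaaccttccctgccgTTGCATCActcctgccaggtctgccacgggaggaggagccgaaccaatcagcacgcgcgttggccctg
Asns: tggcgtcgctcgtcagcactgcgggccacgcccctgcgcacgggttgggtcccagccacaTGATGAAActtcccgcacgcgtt
Slc7a11: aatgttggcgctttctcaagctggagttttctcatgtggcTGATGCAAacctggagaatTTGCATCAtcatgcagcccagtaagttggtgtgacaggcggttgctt
The Chac1 window lies at chr2:119350992-119351116 on the plus strand, and its match begins at base -193 from the start, in reverse orientation. The Asns window lies at chr6:7693210-7693292 on the minus strand, with its match at base -23. The Slc7a11 window lies at chr3:50443614-50443719 on the minus strand and holds 2 matches, at bases -66 and -47, in opposite orientations with 11 bases between them. The match of Trib3 begins 14 bases after the start. A match is a description of the letters and not of binding.

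Of each library 9281 to 11215 barcodes were kept, those with 200 genes or more and no more than 10% of UMIs from mitochondrial genes. Barcodes with at least 2 UMIs of Rhox5, a homeobox gene used here to mark the tumour line, and none of Ptprc (CD45) were called carcinoma-like. They numbered 5832 in tumour NanoCa, 4656 in tumour mock, 229 in TDLN NanoCa and 805 in TDLN mock. The tumour libraries are labelled as infiltrating immune cells and were sorted after a CD45 stain, yet carcinoma-like barcodes made up 52.0% and 50.2% of them. Of the epithelial markers, Krt18 had a UMI in 22.7% to 58.5% of carcinoma-like barcodes, while Epcam and Cldn4 were both at 0 in tumour mock and TDLN NanoCa, and Cldn7 was at 0 in TDLN NanoCa and TDLN mock. The fibroblast list summed to 499.5 to 786.5 UMIs per 1000000 there, so the name rests on Rhox5 and on the near absence of Xist (a UMI in 2.94% to 5.24% of barcodes, against 54.5% to 61.6% of immune barcodes). Just inside the gate, 573, 399, 17 and 23 barcodes had exactly 2 Rhox5 UMIs, and just outside it 837, 668, 81 and 147 had exactly 1. Immune barcodes (at least 1 Ptprc UMI and at most 1 of Rhox5) numbered 1947, 1975, 9442 and 7562 in the same order of libraries. Median depth was 22480 to 58617 UMIs in carcinoma-like and 3184 to 4429 in immune barcodes, and pairs of libraries shared 121 to 183 barcodes, none with equal UMI totals.

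Levels are UMIs of a gene per 1000000 UMIs (CPM), summed over the barcodes of a cell group in a library. With 1 library per group there is no test and no p-value. Intervals are exact 95% intervals that cover counting error only, and spread between animals cannot be seen. A call of higher or lower needed a ratio of 1.5-fold or more and 50 UMIs or more on both sides together. UMIs were counted at transcript ends and are not scaled by length, so each gene is compared with itself only.

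Most of the 10 genes were higher in carcinoma-like than in immune barcodes. In tumour NanoCa 8 were called higher and 1 lower, against 21% and 38.8% of all genes tested (59.8% in either direction). In tumour mock 7 were called higher and 1 lower, against 20.4% and 39.4% (59.8%). In TDLN NanoCa 8 were called higher and none lower, against 27% and 45% (72%), and in TDLN mock 9 higher and none lower, against 25.6% and 43.9% (69.5%). The median log2 ratio of the 10 genes was 1.54, 1.62, 2.93 and 2.44 in these libraries, beside -0.26, -0.29, -0.38 and -0.36 over all genes tested. In the tumour the background shares include genes with very few UMIs on the immune side, whose ratios pass 1.5-fold easily. Each of the 10 genes had at least 75 UMIs on both sides of these comparisons. With TMM or median-of-ratios scaling the median of all genes moved by 0.17 to 0.31 on the log2 scale, and the share of higher genes among those called moved from 34.1% to 37.5% with summed UMIs to 43.1% to 48.6%. None of the 10 genes changed sign under either scaling.

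**Figure D1:**
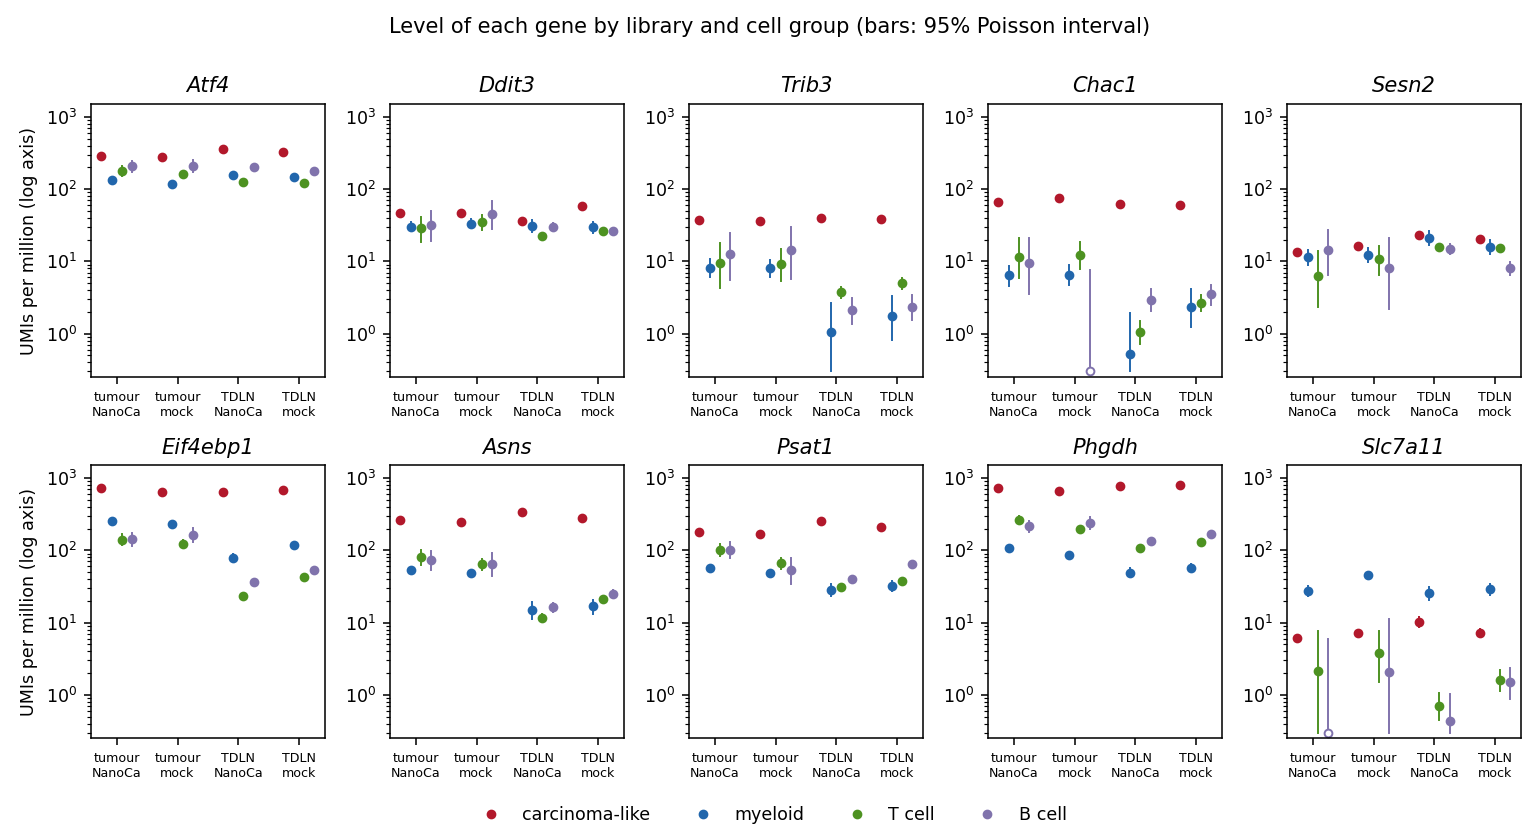
Level of each of the 10 genes in CPM (log axis) in carcinoma-like, myeloid, T and B barcodes of the 4 libraries. Points are summed levels, bars are 95% Poisson intervals, and open points drawn at the bottom of the axis stand for 0 UMIs. Carcinoma-like points lie highest for 8 genes in all 4 libraries, while myeloid points lie highest for Slc7a11.

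Among the regulators, Atf4 itself stood at 286 CPM in carcinoma-like barcodes of tumour NanoCa, 277 in tumour mock, 356 in TDLN NanoCa and 329 in TDLN mock. Immune barcodes of the same libraries had 149, 138, 147 and 142 CPM of Atf4, so the log2 ratio was 0.94, 1.01, 1.27 and 1.21. All 4 carcinoma-like levels of Atf4 lay above all 4 immune levels. Ddit3 encodes CHOP, a transcription factor of prolonged stress, and its carcinoma-like levels were 47.0, 47.3, 35.7 and 58.4 CPM against 31.1, 35.8, 24.5 and 27.2 in immune barcodes. Its log2 ratio of 0.59 (0.42 to 0.77) in tumour NanoCa and 0.54 (0.39 to 0.69) in TDLN NanoCa lay on either side of the 1.5-fold line with overlapping intervals. In 2 of 15 alternatives the ratio in tumour NanoCa was under 1.5-fold.

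Of the feedback genes, Trib3 encodes a pseudokinase that restrains ATF4 and CHOP. Its carcinoma-like levels were close together, at 37.0, 35.9, 39.3 and 38.5 CPM, while its immune levels were 9.71 and 9.0 in the tumour and 3.13 and 3.89 in TDLN. Chac1 encodes an enzyme that degrades glutathione, and it had the largest ratio of the 10 genes in every library. Chac1 stood at 65.5, 74.1, 62.5 and 60.5 CPM in carcinoma-like and at 8.46, 9.80, 1.63 and 2.99 CPM in immune barcodes, log2 ratios of 2.95, 2.92, 5.26 and 4.34. Sesn2 encodes a leucine sensor that inhibits mTORC1. Its levels of 13.5, 16.2, 22.9 and 20.4 CPM in carcinoma-like barcodes stood against 12.9, 12.2, 15.7 and 13.6 in immune barcodes, log2 ratios of 0.07, 0.41, 0.55 and 0.59, of which the last passed 1.5-fold. Eif4ebp1 encodes 4E-BP1, a repressor of cap-dependent translation. It had 731, 649, 637 and 681 CPM in carcinoma-like barcodes and 236, 209, 31.8 and 56.4 CPM in immune barcodes, so its immune levels were far higher in tumour than in TDLN.

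The biosynthetic enzymes showed the same order. Asns, asparagine synthetase, had 263, 248, 334 and 279 CPM in carcinoma-like and 65.3, 57.1, 13.6 and 22.0 CPM in immune barcodes. Phgdh catalyses the first step of serine synthesis and had 717, 651, 787 and 808 CPM against 146, 128, 107 and 131. Psat1 catalyses the next step and had 181, 170, 254 and 209 CPM against 66.5, 55.8, 32.3 and 43.7. For each of these enzymes, the lowest carcinoma-like level exceeded the highest immune level.

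Slc7a11 departed from the other genes. It encodes the cystine/glutamate antiporter xCT, which supplies cysteine for glutathione. In carcinoma-like barcodes it had 6.20, 7.08, 10.2 and 7.27 CPM. In immune barcodes it had 21.2 and 33.1 CPM in the tumour, where the carcinoma-like level was lower by a log2 ratio of -1.77 (-2.0 to -1.54) with NanoCa and -2.22 (-2.41 to -2.04) with mock. In TDLN the immune levels were 3.11 and 5.49 CPM. There the carcinoma-like level was higher, as for the other genes, by a log2 ratio of 1.72 with NanoCa and 0.40 with mock, the latter under 1.5-fold. Myeloid barcodes held the signal, with 27.2, 44.8, 25.5 and 28.7 CPM, while T and B barcodes had 0 to 3.75 CPM. This class is not of myeloid cells alone. An NK list (Ncr1, Klrb1c, Klra8 and Klre1) summed to 116, 171, 133 and 253 CPM in it, above the T and B barcodes of each library. Klra8 was at 0 in the class in both mock libraries. The tumour immune barcodes were 1085 myeloid of 1947 and 986 of 1975, and the TDLN ones 375 of 9442 and 494 of 7562. When each barcode was thinned to 2000 UMIs, 5.39% of tumour NanoCa myeloid barcodes had an Slc7a11 UMI (exact binomial interval 4.04% to 7.03%). The share was 1.22% in carcinoma-like and 0.96% in T barcodes, the latter only 2 of 208 (0.12% to 3.43%). Without thinning these shares were 10.0%, 11.8% and 0.63%, at median depths of 4840, 22480 and 2284 UMIs.

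Free RNA from carcinoma cells can add UMIs to immune barcodes. From Rhox5, which the immune gate limits to 1 UMI, carcinoma-like RNA was estimated at 15.1% and 15.0% of the immune UMIs in the tumour libraries, and at 2.28% and 4.28% in TDLN NanoCa and TDLN mock. The Chac1 level of tumour immune barcodes was no higher than this free RNA would give (117% and 113% of the measured level), and in TDLN the estimate covered 87.5% and 86.5% of it. For Asns the estimate covered 54.1% to 65.0% of the immune level over the 4 libraries, and for Phgdh 74.2% and 76.3% in the tumour. For Trib3 it covered 57.6% and 59.6% in the tumour and 28.7% and 42.2% in TDLN. Subtraction left 4.85 and 4.28 CPM of Trib3 in the tumour and 2.28 and 2.35 in TDLN. Eif4ebp1 split by class. In tumour T barcodes the estimate covered 120% and 109% of its level, but in tumour myeloid barcodes 28.9% and 30.6%, which left 204 and 181 CPM. Slc7a11 in myeloid barcodes was covered to at most 2.3%. For Atf4, Ddit3 and Sesn2 the estimate stayed at or below 30.2% of the immune level in all 4 libraries.

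**Figure D2:**
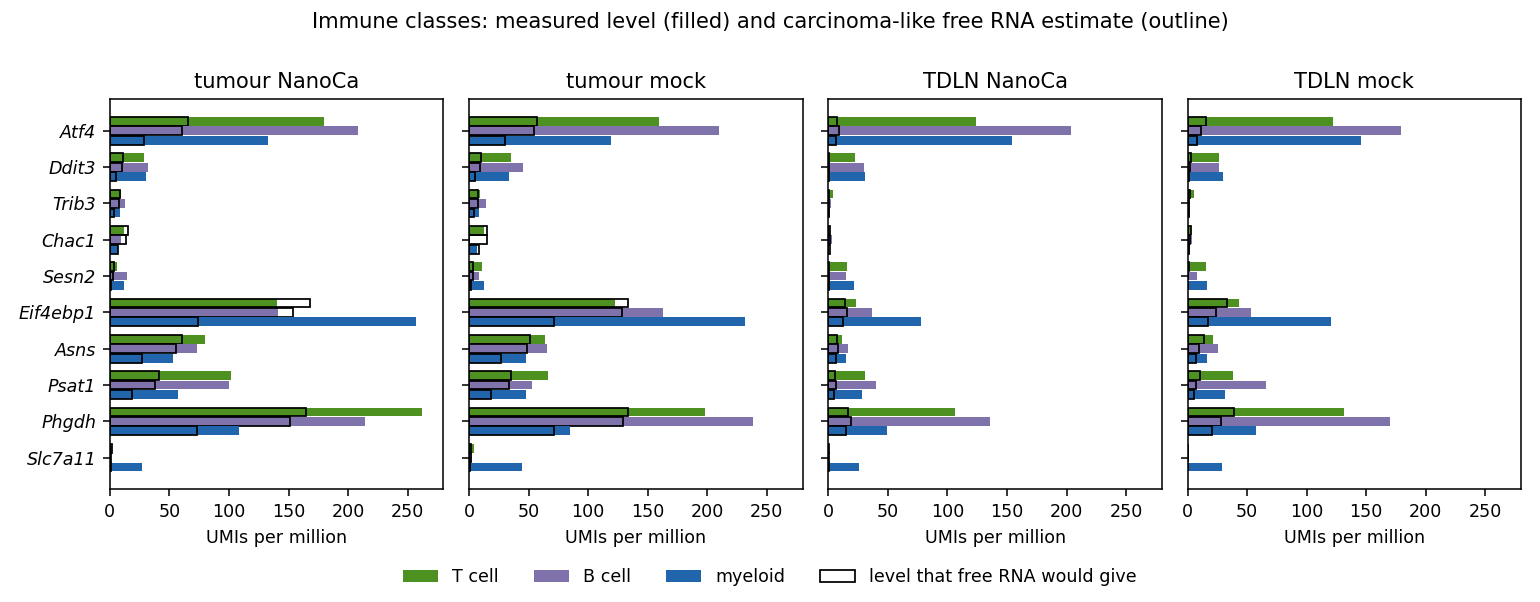
Level of each gene in T, B and myeloid barcodes of the 4 libraries (filled bars, CPM) and the level that carcinoma-like free RNA would give by the Rhox5 estimate (outlines). Outlines reach or pass the filled bar for Chac1 in tumour T and myeloid barcodes. In tumour myeloid barcodes they cover 28.9% and 30.6% of Eif4ebp1, and at most 2.3% of Slc7a11.

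Between NanoCa and mock, none of the 10 genes was called in carcinoma-like barcodes of the tumour, where 11.6% of all genes tested were (8.29% higher and 3.32% lower). The log2 ratios ran from -0.26 (-0.35 to -0.17) for Sesn2 to 0.17 (0.16 to 0.19) for Eif4ebp1, and 6 of 10 were above 0. Their median was 0.04, beside 0.03 over all genes. Atf4 had a ratio of 0.04, Trib3 of 0.04 and Ddit3 of -0.01. Chac1 stood at -0.18, and the enzymes Asns, Psat1 and Phgdh stood at 0.08, 0.09 and 0.14.

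In carcinoma-like barcodes of TDLN, 1 of the 10 genes was called, where 14.3% of all genes were (5.94% higher and 8.35% lower). Ddit3 had 35.7 CPM with NanoCa and 58.4 with mock, a log2 ratio of -0.71 (-0.86 to -0.57). The mock level of Ddit3 was the highest of the 4 libraries and the NanoCa level the lowest, with both tumour libraries between them. In TDLN mock the 9 barcodes with most Ddit3 held 12.7% of its UMIs, and a single barcode held 75 of 2573. Its variance over mean in barcodes thinned to 10000 UMIs was 4.5 there, against 1.2 in TDLN NanoCa and 1.64 and 1.5 in the tumour. Leaving out the top 1% of barcodes gave -0.63. The other 9 genes ranged from -0.10 (Eif4ebp1) to 0.49 (Slc7a11, 0.19 to 0.78). The next largest ratios were those of Psat1 at 0.28 and Asns at 0.26.

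**Figure D3:**
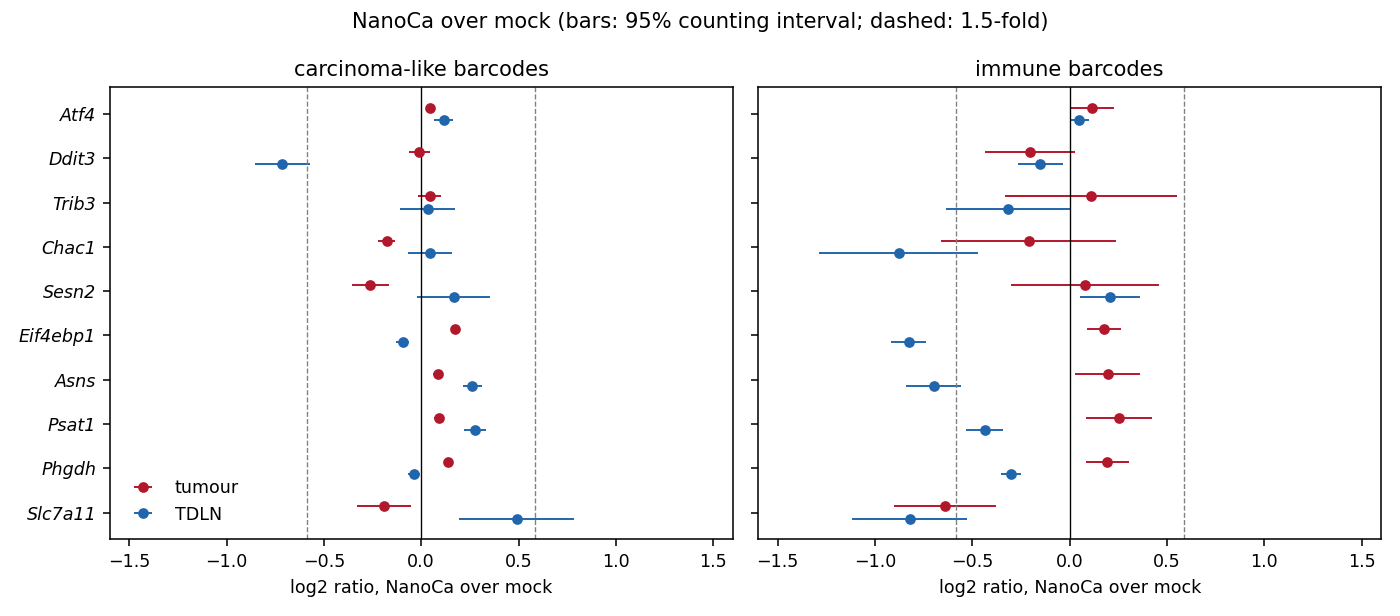
log2 ratio of NanoCa over mock for each gene in carcinoma-like barcodes (left) and immune barcodes (right), in tumour and TDLN. Bars are 95% counting intervals and dashed lines mark 1.5-fold. In carcinoma-like barcodes Ddit3 in TDLN is the single gene past 1.5-fold, at -0.71.

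In immune barcodes of the tumour, 1 of the 10 genes was called, where 10.9% of all genes were (7.26% higher and 3.6% lower). Slc7a11 had 21.2 CPM with NanoCa and 33.1 with mock, a log2 ratio of -0.64 (-0.91 to -0.38), and within myeloid barcodes -0.72 (-1.0 to -0.45). As the mean of per-barcode CPM its ratio was -0.53, under 1.5-fold. The other 9 genes ranged from -0.21 (Chac1) to 0.25 (Psat1). Within classes Psat1 was past 1.5-fold in T (0.62, 0.22 to 1.02) and B barcodes (0.92, 0.24 to 1.64), and stood at 0.25 (0.03 to 0.47) in myeloid barcodes.

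In immune barcodes of TDLN, 4 of the 10 genes were called, all lower with NanoCa, where 16.7% of all genes were called (13.3% lower and 3.41% higher). Chac1 stood at 1.63 against 2.99 CPM (log2 -0.88), Eif4ebp1 at 31.8 against 56.4 (-0.83), Slc7a11 at 3.11 against 5.49 (-0.82) and Asns at 13.6 against 22.0 (-0.70). Free RNA by Rhox5 was also lower there, at 2.28% against 4.28%. The carcinoma-like marker list summed to 21.7 against 68.1 CPM with all 8 genes detected in both, but Krt8, Krt19 and Epcam stood at 9.65, 9.72 and 9.0 CPM in TDLN mock immune barcodes, above the 0.70, 0.27 and 0.25 CPM of its carcinoma-like barcodes. The fibroblast list, with all 7 genes detected in both, summed to 178 against 250 CPM in immune, 67.8 against 155 in T and 25.9 against 290 in B barcodes. Carcinoma-like barcodes made up 2.08% of kept TDLN barcodes with NanoCa and 7.84% with mock. The myeloid list summed to 493 against 914 CPM. After subtraction of free RNA by Rhox5, the same 4 genes were past 1.5-fold, though the interval of Chac1 (-2.28 to 0.16) then included 0. Within myeloid barcodes Eif4ebp1 had 78.1 against 120 CPM, a log2 ratio of -0.62 (-0.83 to -0.42), and Slc7a11 had 25.5 against 28.7 CPM, -0.17 (-0.55 to 0.21). The NK list summed to 133 against 253 CPM in these myeloid barcodes. In T barcodes Eif4ebp1 had 23.0 against 42.9 CPM, of which free RNA covered 59.1% and 76.3%, and 9.62 against 10.7 CPM after subtraction. In B barcodes Sesn2 was higher with NanoCa, at 14.8 against 8.11 CPM (log2 0.87, 0.49 to 1.25). Psat1 was lower there, at 39.8 against 65.5 CPM (-0.72, -0.89 to -0.55). The part of cell makeup in the differences over all immune barcodes was not tested.

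Across single carcinoma-like barcodes thinned to 10000 UMIs, the 45 pairs of the 10 genes had a median Pearson r of 0.10 in tumour NanoCa (5209 barcodes) and 0.12 in tumour mock (4259 barcodes). These barcodes share a library, and the counts are sparse. The pairs with the highest values joined Asns, Phgdh and Eif4ebp1: Asns with Phgdh had 0.40 and 0.46, Eif4ebp1 with Phgdh 0.37 and 0.40, and Eif4ebp1 with Asns 0.35 and 0.39. In TDLN Asns with Phgdh had 0.47 and 0.52. Ddit3 was all but unrelated to the serine enzymes, with r of 0.03 and 0.01 for Phgdh and of -0.03 and -0.02 for Psat1.

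**Figure D4:**
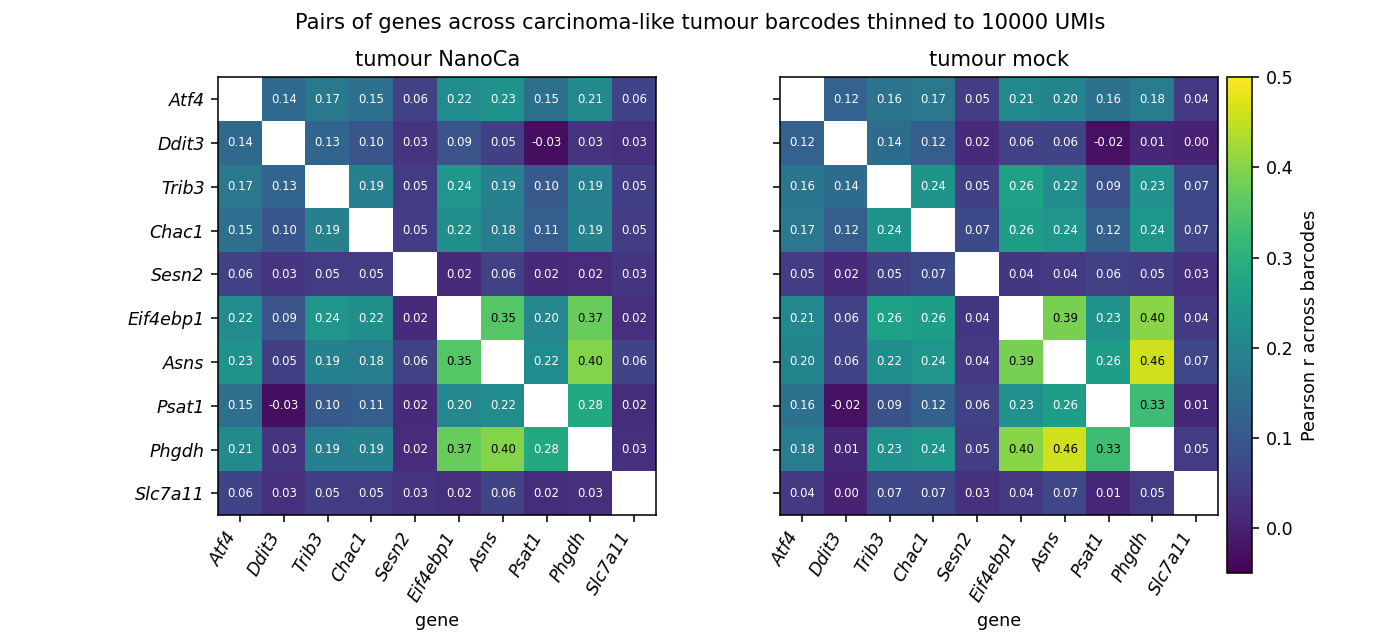
Pearson r for each pair of the 10 genes across carcinoma-like tumour barcodes thinned to 10000 UMIs, 5209 with NanoCa (left) and 4259 with mock (right). The brightest pairs join Eif4ebp1, Asns and Phgdh, while Sesn2 and Slc7a11 stay near 0 with every other gene. Psat1 had 0.28 and 0.33 with Phgdh, but 0.20 and 0.23 with Eif4ebp1 and 0.22 and 0.26 with Asns.

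Among barcodes rich in one gene, the same division was seen for Ddit3 and not for Chac1. In tumour NanoCa, 381 barcodes with at least 3 Chac1 UMIs had 72.2 CPM of Trib3, and 3414 with none had 26.2. The same groups had 75.3 and 43.6 CPM of Ddit3. The enzymes were higher in the Chac1-rich group too, at 349 and 229 CPM for Asns, 230 and 155 for Psat1, and 887 and 620 for Phgdh. In tumour mock the Trib3 values were 73.0 and 23.2 CPM in 355 and 2842 barcodes. The 170 barcodes with at least 3 Ddit3 UMIs in tumour NanoCa had 71.2 CPM of Trib3 against 30.4 in 3456 with none, and 112 against 59.2 CPM of Chac1. Those same Ddit3-rich barcodes differed little in Psat1 (158 against 174 CPM) and Phgdh (742 against 682 CPM). By contrast the 2378 barcodes with at least 3 Asns UMIs had 861 CPM of Phgdh against 404 in 832 with none, and 49.2 against 13.7 CPM of Trib3. Trib3 and Chac1 were thus higher both in Ddit3-rich and in Asns-rich barcodes. Chac1 was also unevenly spread, with a variance over mean of 2.33 and 2.80 in the tumour libraries, beside 1.10 and 1.11 for the median of the genes nearest to it in level. Sesn2 had 1.07 and 1.13.

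The genes also differed between ranges of the tumour carcinoma-like barcodes cut at the top 10% by other gene lists, over both libraries. These ranges are not cell types, and 62 to 311 barcodes per library lay within 10% of a cut. In the range highest in Lcn2 and Car6 (569 and 480 barcodes), Trib3 had 80.8 CPM against 31.8 in the rest with NanoCa and 69.2 against 31.8 with mock. Ddit3 had 80.9 against 43.1 and 72.2 against 44.3 CPM, and Chac1 104 against 61.0 and 102 against 70.7 CPM. With mock, Chac1 was under 1.5-fold (log2 0.53). Atf4, Sesn2, Eif4ebp1, Asns, Psat1, Phgdh and Slc7a11 were under 1.5-fold in both libraries. Among them Asns stood at log2 0.45 and 0.47, Phgdh at 0.36 and 0.36, and Psat1 at 0.07 and -0.25. The median over all genes tested was -0.16 and -0.15 there, with 4.54% called higher and 17.8% lower with NanoCa, and 4.49% and 17.6% with mock. In the range highest in Afp, Glod5 and Clu (706 and 343 barcodes) the order was turned. Trib3 had 20.3 against 39.2 and 13.9 against 37.1 CPM, Chac1 34.2 against 69.7 and 38.2 against 76.2, and Phgdh 454 against 752 and 328 against 670. Ddit3 was not lower in that range, at log2 0.10 and 0.32. Of all genes tested in it, 10.7% were higher and 3.97% lower with NanoCa, and 14.6% and 5.97% with mock. Median depth there was 21023 against 22660 UMIs with NanoCa and 16270 against 25554 with mock. In the cycling range none of the 10 genes was past 1.5-fold in either library, and Psat1 stood at log2 0.32 and 0.50. Of all genes tested in the cycling range, 8.24% were higher and 6.87% lower with NanoCa, and 8.11% and 7.06% with mock.

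**Figure D5:**
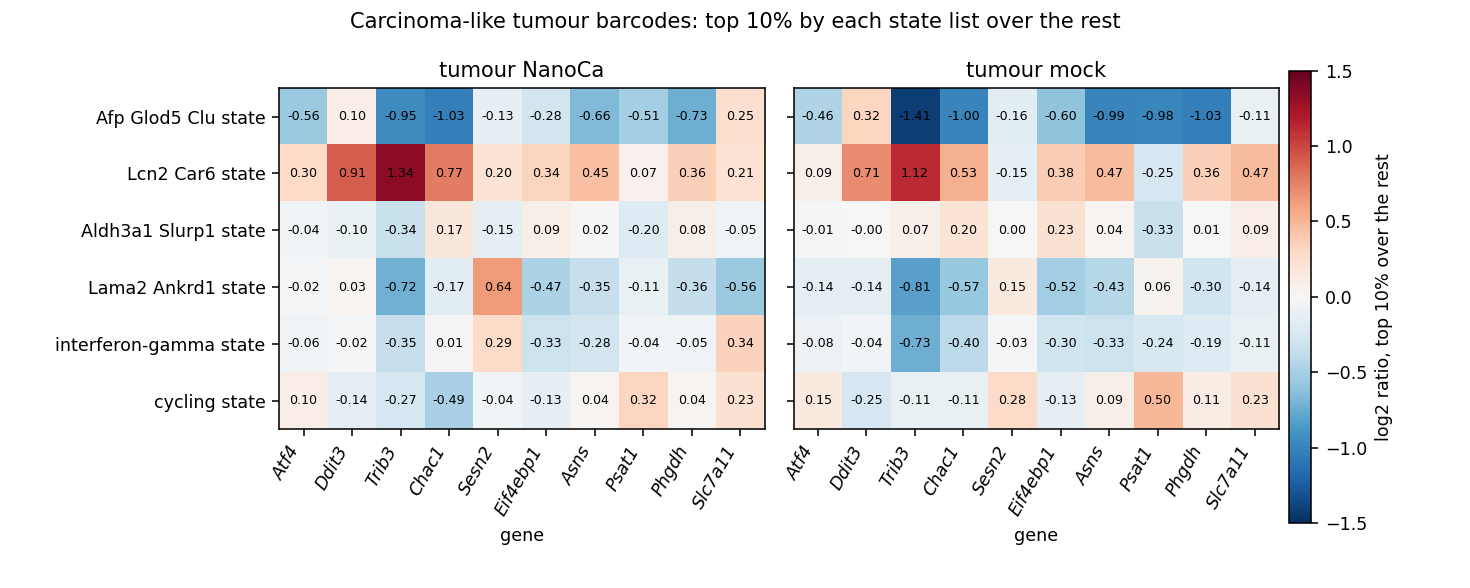
log2 ratio of each gene in the top 10% of tumour carcinoma-like barcodes by each list over the rest, with NanoCa (left) and with mock (right). Trib3 is highest in the Lcn2 Car6 range (1.34 and 1.12) and lowest in the Afp Glod5 Clu range (-0.95 and -1.41).

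Other genes of the pathway were taken from 7 lists. Of the eIF2alpha kinases and phosphatase subunits, none of 7 was called between NanoCa and mock in tumour carcinoma-like barcodes, beside 11.6% of all genes. Against immune barcodes, 3 of 7 were lower in both tumour libraries, a share near the 38.8% and 39.4% of all genes. Eif2ak3, which encodes the kinase PERK of the endoplasmic reticulum, stood at 4.88 against 16.8 CPM in tumour NanoCa and at 3.97 against 55.9 in TDLN NanoCa. Ppp1r15a, the stress-induced phosphatase subunit GADD34, was higher with NanoCa in TDLN immune barcodes, at 478 against 288 CPM.

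Of the partner and feedback factors, 2 of 12 were higher and 1 lower with NanoCa in tumour carcinoma-like barcodes, beside 8.29% and 3.32% of all genes. The C/EBP genes Cebpb and Cebpg, whose proteins pair with ATF4, were those higher, at 350 against 152 CPM (log2 1.21, 1.18 to 1.23) and 75.2 against 22.1 CPM (1.77, 1.71 to 1.83). Gdf15, a secreted stress factor, was at 0.50 against 1.56 CPM. Cebpb was higher with NanoCa in tumour myeloid (log2 1.21), T (1.16) and B barcodes (1.55) too. In TDLN the direction was the opposite, at -0.91 for Cebpb and -0.76 for Cebpg in carcinoma-like and -0.99 and -1.12 in immune barcodes. The 10 genes themselves had ratios of -0.26 to 0.17 in tumour carcinoma-like barcodes. Atf3, a stress-induced factor, was far lower in carcinoma-like barcodes, at 4.61 CPM in carcinoma-like and 310 in immune barcodes of tumour NanoCa.

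Among serine, one-carbon, proline and cysteine enzymes, 11 of 12 measured were higher in carcinoma-like than immune barcodes of tumour NanoCa and 10 of 12 in tumour mock, beside 21% and 20.4% of all genes. Psph, the last enzyme of serine synthesis after Phgdh and Psat1, had 156 against 48.1 CPM, and mitochondrial Shmt2 had 254 against 80.7. Of the aminoacyl-tRNA synthetase list, 8 and 9 of 13 were higher in the tumour libraries against the same shares, and 13 of 13 in both TDLN libraries, where 27% and 25.6% of all genes were. Tars had 134 against 56.3 CPM in tumour NanoCa. Of the amino acid transporters, 4 and 3 of 7 measured were higher in the tumour (21% and 20.4% of all genes), among them the glutamine carrier Slc1a5 at 251 against 93.4 CPM. Slc7a5, the leucine carrier that exchanges against glutamine, was the single transporter called between treatments in tumour carcinoma-like barcodes, at 73.5 against 32.9 CPM. Of all genes tested, 11.6% were called there (8.29% higher). Slc7a5 was higher with NanoCa in tumour T (log2 0.95, 0.33 to 1.57) and myeloid barcodes (0.43, 0.13 to 0.73) too. Of the endoplasmic-reticulum chaperones of the other unfolded-protein branches, none of 12 was called higher and 3 lower in both tumour libraries, the latter a smaller share than the 38.8% and 39.4% of all genes. Among them Sdf2l1 stood at 23.5 against 114 CPM. In the NRF2 list, 1 of 7 was higher and 2 lower in both tumour libraries, no larger a share than over all genes in either direction. Hmox1, heme oxygenase, had 30.3 against 228 CPM in tumour NanoCa.

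Over 16 groups (carcinoma-like, T, B and myeloid barcodes of each library), the genes whose log2(CPM + 1) followed the mean of the 10 most closely, of 12318 ranked, were Cyb5r3 (Pearson r 0.989), Hmga1 (0.986), Eps8l2 (0.982), Selenof (0.981) and Oaf (0.979). Groups of a library are not independent of each other, and they differ in depth and in free RNA. The values describe these 16 groups. Each of the 10 genes was compared with the mean of the other 9 in the same way. Asns followed it most closely (0.95), then Eif4ebp1 (0.92) and Psat1 (0.90). Sesn2 (0.23) and Slc7a11 (0.11) followed it least.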

How the data were processed

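The deposited matrices hold raw counts of UMIs. The authors made these count matrices with Cell Ranger 7.1.0, per the file headers, from 10x 3' v2 libraries, per the labels' protocols. No source used here names the genome build. All 4 libraries carry a single batch date, and hold 74909974 to 167924801 UMIs.

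UMIs were summed per library and cell group and divided by the group's total. Levels carry exact Poisson and ratios exact conditional binomial 95% intervals. A call needed 50 UMIs over both sides and 1.5-fold. On simulated counts this call was often passed by unchanged genes that expected under 10 UMIs on the smaller side, which occurs in the tumour comparisons of carcinoma-like with immune barcodes. The limit of the simulation check was therefore set on genes expecting 10 or more there, after it had failed over all genes. Immune barcodes were T, B or myeloid where a list had at least 3 UMIs and 3 times each other list. Doublets were left in, and removing those scored highest by Scrublet (scanpy 1.11.5) was an alternative, as were TMM factors (edgeR 4.0.16). All 10 genes are named, and of the pathway lists at most 3 genes per list and direction, with ratios farthest from 1, and the 5 genes most alike in pattern. The 10 genes, the lists and the ranges were chosen with earlier results of these data known.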

Additional observations from a re-analysis of the deposited data

Results flagged for a closer look

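For 3 genes the ratio of NanoCa to mock in carcinoma-like barcodes had opposite signs in tumour and TDLN, with both intervals excluding 0. Genes of opposite sign with an interval that included 0 are not counted. The log2 ratio was 0.17 in tumour and -0.10 in TDLN for Eif4ebp1, 0.14 and -0.04 for Phgdh, and -0.19 and 0.49 for Slc7a11. In immune barcodes the same held for 4 genes: 0.18 in tumour and -0.83 in TDLN for Eif4ebp1, 0.19 and -0.70 for Asns, 0.25 and -0.44 for Psat1, and 0.19 and -0.30 for Phgdh. The difference between tissues was not tested, since each group is 1 library, and the intervals cover counting error only. With many UMIs even a small ratio can exclude 0. Phgdh in TDLN carcinoma-like barcodes, at -0.04, had 10707 UMIs with NanoCa and 35554 with mock. The share of all genes that meet this rule was not computed, so the counts do not set these genes apart from others.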

How the results depend on the processing

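Of 114 recounts of genes called in the 8 comparisons, 112 stayed within 1.5 times the first count, and 2 did not. Both concern tumour immune barcodes with NanoCa and mock, where 1 gene was called. The mean of per-barcode CPM gave 0, and subtraction of free RNA by Krt8 and Krt18 gave 6 (5 higher and 1 lower). That estimate was 15.6% of immune UMIs with NanoCa and 23.4% with mock, while Rhox5 gave 15.1% and 15.0%. Among the 5 higher, Asns and Phgdh had no finite ratio, because the subtraction took their mock level to 0. Subtraction by Rhox5, chosen after seeing the data, gave 1, with Chac1 at 0 on both sides. The cause was not tested. The Krt8 and Krt18 estimate was not run for TDLN mock, where it came to 106% of the immune profile. Of 1133 recomputed ratios of single genes, 892 moved by less than their interval, 241 by more, and 0 called ratios changed sign. Ddit3 in TDLN carcinoma-like barcodes stayed past 1.5-fold in 14 of 14 alternatives (-0.90 to -0.63). Sesn2 in TDLN mock, carcinoma-like against immune, fell under it in 6 of 14. No paired analysis was possible because each group is 1 library. Some levels of Trib3, Chac1, Sesn2 and Slc7a11 in T and B barcodes rest on under 10 UMIs.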

Other observations

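Barcodes with neither 2 Rhox5 UMIs nor a Ptprc UMI belong in no comparison above. In the tumour there were 2928 with NanoCa and 2242 with mock, at median depths of 2686 and 2849 UMIs. Ddit3 stood at 55.0 CPM with NanoCa and 64.0 with mock in them, above its level in carcinoma-like and in immune barcodes of the same libraries. Sesn2 had 16.2 and 25.6 CPM there, and Slc7a11 23.2 and 29.7 CPM. Atf4 had 212 and 207 CPM, between the immune and carcinoma-like levels. Chac1 had 33.5 and 24.8 CPM, also between them. In TDLN the same kind of barcode had 22.9 and 31.3 CPM of Ddit3.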
